A study of Arabidopsis thaliana with 19 samples.

Results

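H3K4me3 was mapped by chromatin immunoprecipitation and sequencing in sperm nuclei of wild-type Arabidopsis thaliana, ecotype Col-0. The members described here are all 22150 narrow H3K4me3 peaks that the authors called on chromosomes 1 to 5, of 55303 narrow peaks over the 4 histone marks of the study. The nuclei came from a line carrying ProHTR10:HTR10-Clover, in which the sperm histone H3.10 is tagged with a fluorescent protein under the promoter of its own gene, and were sorted by fluorescence. Chromatin was cut to mononucleosomes with micrococcal nuclease. The antibody was anti-H3K4me3, and the 3 immunoprecipitations were made, by their descriptions, from preparations 1, 2 and 3 of Input_A, although these descriptions number all 3 immunoprecipitations 1 and only the titles number them apart; the Input_B preparations belong to the H3.10 experiment. These are 3 of 19 samples, and no treatment, mutant or second tissue was compared. The labels name the same peak list for all 3 immunoprecipitations, and which control the peak calling used is not given in the sources used here, so no value below has a replicate error, no test between samples was possible, and the depth of the libraries is unknown. Genes and peaks are not replicates, and every comparison is therefore a description of 1 pooled list.

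H3K4me3 is laid down on the tail of histone H3 by SET-domain methyltransferases of the Trithorax group working in COMPASS-like complexes, and is removed by JmjC and LSD1-type demethylases. In plants it sits on the first nucleosomes of transcribed genes, downstream of the transcription start, and it accompanies H3K27ac. In sperm, whose chromatin carries the variant H3.10 in place of much of the canonical H3, it is of interest as a mark that can pass through the male germline. The measure used throughout is the fold of a peak, the ratio of immunoprecipitation to control at the summit as the authors' peak caller gave it. It ranks enrichment within the list and is not an amount of the mark per nucleus. As the nuclei were pooled, a mark on few nuclei and a weak mark on all of them cannot be told apart.

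H3K4me3 formed many short peaks of moderate and graded enrichment. The fold ran from 1.17 to 8.45 with a median of 3.70, and the middle of the distribution lay between the quartiles 2.60 and 4.88. Peaks were 347 to 8117 bp wide with a median of 841 bp, and the quartiles were 650 and 1146 bp. Their combined length was 21.8 Mb, which is 18.3% of the 119.144 Mb analysed. The upper tail was thin, since 5% of the peaks had a fold above 6.20. The gap between neighbouring peaks had a median of 2588 bp.

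Wider peaks had higher folds, with a rise in the median from each class of width to the next. The median fold was 2.03 for the 2424 peaks of up to 500 bp, 3.70 for the 12224 peaks over 500 and up to 1000 bp, and 4.15 for the 4575 peaks of the next class, up to 1500 bp. It was 4.63 for the 874 peaks over 2000 and up to 3000 bp and 5.01 for the 230 peaks over 3000 bp. Spearman's rho of fold and width across the 22150 peaks was 0.494. It was 0.212 when only the 14571 peaks with a fold of at least 3 were kept.

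**Figure D1:**
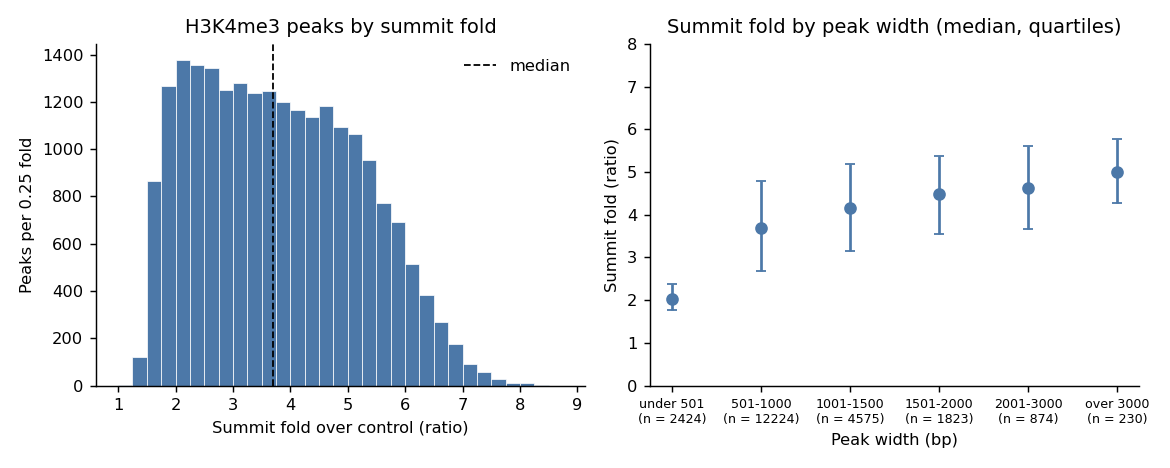
Left, number of H3K4me3 peaks in equal steps of summit fold (ratio of immunoprecipitation to control), with the median of 3.70 as a dashed line. Right, median summit fold in 6 classes of peak width, with bars from the lower to the upper quartile; the median rises from 2.03 in the shortest class to 5.01 in the widest.

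Peaks were found along all 5 chromosomes and were sparse near the centromeres. Chromosomes 1 to 5 had 191, 170, 188, 180 and 195 peaks per Mb, and their median folds lay between 3.67 on chromosome 2 and 3.75 on chromosome 4. Pericentromeres, taken as the run of 500 kb windows with few genes around the poorest window of each chromosome, made up 14.7% of the span. They held 480 peaks, 2.17% of the list, or 27.4 peaks per Mb against 213 per Mb on the arms. Genes were also less often marked there: 351 of 949 protein-coding genes in pericentromeres (37.0%, exact binomial interval 33.9 to 40.1%) against 20291 of 26495 on the arms (76.6%, interval 76.1 to 77.1%). Where a peak was called in a pericentromere its fold was near that of the arms, with a median of 3.58 (quartiles 2.54 and 4.69) against 3.70 (quartiles 2.60 and 4.88).

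The summits lay just inside genes. Of 22150 summits, 19861 (89.7%) were within a protein-coding gene, while 54.1% of all bases were. Inside genes, the median distance from the summit to the nearest gene end was 352 bp, with quartiles of 269 and 504 bp. Summits were densest from 300 to 400 bp inside a gene end, at 984 per Mb of such bases, and numbered 27.7 per Mb in the 100 bp just outside it. Coverage by peaks rose from 5.47% of bases at 300 to 400 bp outside a gene end to 46.8% at 400 to 500 bp inside, and fell to 8.92% at 1400 to 1500 bp inside. The gene table gives no strand, so starts and ends of transcription are pooled in these distances.

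Peaks of high fold lay inside genes more often than those of low fold. In the 5538 peaks of highest fold, taken as the upper of 4 equal classes, 96.1% of summits were inside genes and 80.0% were within 500 bp of a gene end. In the lowest class the shares were 79.4% and 53.0%. Sequence with no annotated gene, more than 500 bp from any protein-coding gene, held 11.3% of the bases under peaks of the lowest class and 1.79% of those of the highest, against 23.3% of all bases.

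**Figure D2:**
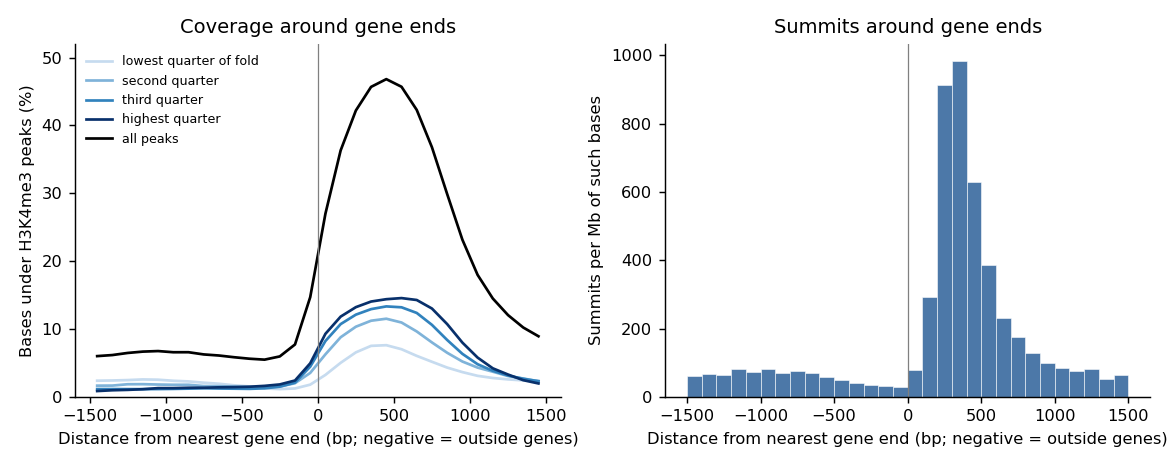
Left, percent of bases under H3K4me3 peaks against the distance in bp from the closest gene end (negative values lie outside genes), for all peaks and for 4 equal classes of summit fold. Right, summits per Mb of bases at each distance; both panels use bins of 100 bp, coverage of all peaks is highest at 46.8% from 400 to 500 bp inside, and summits are densest at 984 per Mb from 300 to 400 bp inside.

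Most long genes carried the mark at one end only. Among 12428 genes over 2000 bp with H3K4me3, 9947 (80.0%) had at least 250 of the 500 bp inside one end under peaks and not at the other. Both ends were covered in 8.96%, and in the rest neither was. The median of the highest fold was 4.32 for genes covered at one end, 4.55 for those covered at both and 2.83 for those covered at neither.

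Of 27444 nuclear protein-coding genes, 20642 (75.2%, exact binomial interval 74.7 to 75.7%) had at least 150 bp under a single H3K4me3 peak, which is the background for every count of marked genes below. The highest fold over these genes had a median of 4.08, with quartiles of 2.99 and 5.13. Near the threshold, 17 genes fell short of 150 bp by up to 10 bp, with a median fold of 3.34, and 13 reached it with less than 10 bp to spare, with a median fold of 4.27. No peak touched 6608 genes. One peak covered 18707 genes, 1868 genes had 2 peaks, and 64 had 3. In genes with 2 peaks the stronger had a median fold of 4.16 and the weaker 2.32. From the side of the peaks, 18004 covered 1 gene, 2141 covered 2, and these had median folds of 3.71 and 4.50.

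Longer genes were more often marked. The share with H3K4me3 was 26.5% for the 1747 genes of up to 600 bp, 52.4% for those over 600 and up to 1000 bp, 78.5% for those over 1500 and up to 2000 bp and 92.6% for the 1639 genes over 5000 bp. The median fold of marked genes rose with each class of length, from 3.58 in the shortest to 4.51 in the longest. Across the 20642 single genes the relation was weak, with a rho of 0.107. The part of the gene under peaks fell from all of it in the shortest class to a median of 14.0% in genes over 5000 bp.

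**Figure D3:**
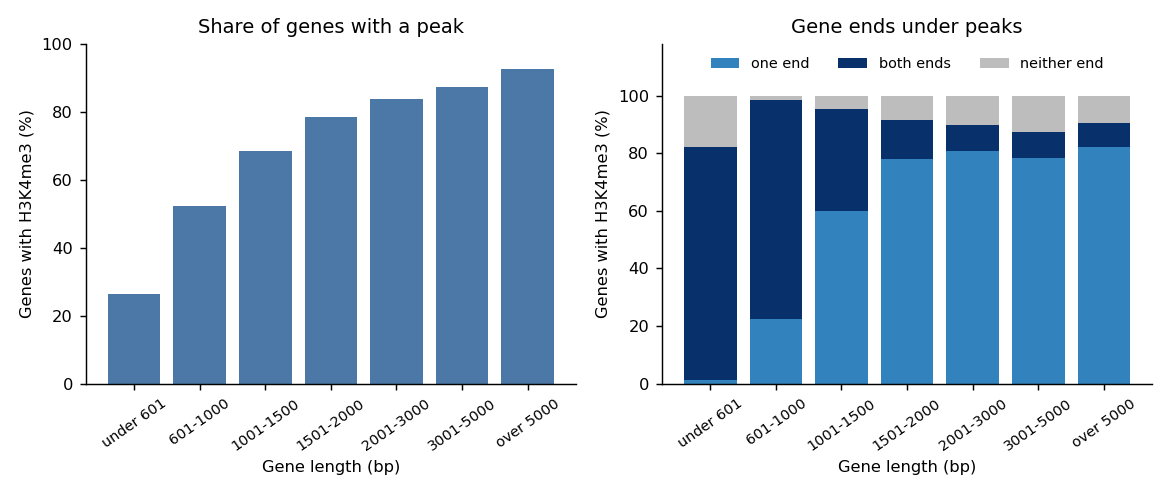
Left, percent of protein-coding genes with at least 150 bp under 1 H3K4me3 peak in 7 classes of gene length in bp, rising from 26.5% to 92.6%. Right, for the genes with H3K4me3 in each class, the percent with at least 250 of the 500 bp inside one end, both ends or neither end under peaks; in genes of up to 1000 bp the 2 windows overlap, so coverage of both ends is not informative there.

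Most genes of highest fold had no symbol in the gene table, and those with one act in different processes. The first 30 genes had folds of 7.73 to 8.45 and lay under 24 peaks, 12 of them sharing a peak with another gene. AT5G63520 was highest at 8.45, in a peak at chromosome 5, 25428372 to 25430335. It was followed by AT1G72880 at 8.30 (chromosome 1, 27425316 to 27426196) and AT3G24506 at 8.24 (chromosome 3, 8928089 to 8929374). DAN1 (AT3G04620), which the annotation names as a nucleic acid binding protein activated by DUO1, ranked 10 with 8.01, its peak spanning chromosome 3, 1255450 to 1256848. SAR1 (AT2G33120), the vesicle membrane protein VAMP722, followed at 8.00. TSO2 (AT3G27060), the small subunit of ribonucleotide reductase that supplies nucleotides for DNA synthesis, had 7.80. Further genes with a symbol were DGR1 and ORS1 with 7.96 each, GH9B8 with 7.90, CYP89A9 with 7.79 and the SNARE gene ATBET12 with 7.78. GH9B8, CYP89A9, DGR1, ORS1 and TSO2 share their peak with a neighbour, so the fold cannot be assigned to either gene of the pair. For 21 of the 30 the gene table holds an identifier in place of a symbol.

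The other marks were also counted on these 30 genes. H3K27ac lay on 30 of 30, against 71.2% of the genes with H3K4me3. H3K27me3 in its broad list lay on 7, among them TSO2, CYP89A9, AT5G13100 and AT2G19880, against 4.19%. Peaks of this broad list had a median −log10 q of 0.835, against 5.35 for the narrow H3K27me3 list and 65.3 for the H3K4me3 peaks. Narrow H3K27me1 lay on 2, AT1G76880 and CYP89A9, against 22.0%. In the tenth of marked genes with the highest fold, the shares were 95.3% for H3K27ac, 6.83% for H3K27me3 and 5.81% for H3K27me1. Counted once per gene, the peak widths of the 30 genes had a median of 1599 bp, so shared peaks weigh more than once. Counted once per peak, all H3K4me3 peaks had a median of 841 bp, so the 2 values are not on the same count. Width was not matched here.

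The genes of lowest fold included receptors and cell surface genes, and most of their peaks were short. The last 10 had folds of 1.32 to 1.404 in peaks with a median width of 427 bp. Of these 10 genes 4 carried H3K27ac, against 71.2% of all genes with H3K4me3. In the tenth of marked genes with the lowest fold the share was 37.5%. The lowest was AT2G43535 at 1.32, followed by AT1G74088 at 1.33 and TBL36 (AT3G54260) at 1.35, and AT1G76960 and AT1G11730 are also among the 10. They include NPR4 (AT4G19660), a salicylic acid receptor, at 1.37, the root growth gene SKU5 (AT4G12420) at 1.36, the Shaggy-like kinase SKdZeta (AT2G30980) at 1.399, and the receptor like proteins RLP6 (AT1G45616) at 1.398 and RLP43 (AT3G28890) at 1.403.

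The 5 widest peaks were not those of highest fold. The widest, 8117 bp at chromosome 1, 30141232 to 30149348, covered AT1G80130, AT1G80133, AT1G80140 and AT1G80150 with a fold of 4.47. A peak of 8065 bp at chromosome 4, 6989989 to 6998053, covered AT4G11540, AT4G11543, AT4G11547 and AT4G11550 with a fold of 5.12. The third, 7863 bp at chromosome 4, 17590867 to 17598729, covered AT4G37409, AT4G37420 and the cytochrome P450 genes CYP81F4 (AT4G37410) and CYP91A2 (AT4G37430), with a fold of 7.31. The other two lay on chromosome 2, over AT2G07981 and AT2G08986 with a fold of 2.41 (3616515 to 3622670) and over the MADS box gene AGL95 with 4.51 (6819478 to 6825467).

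Genes of the male germline had high folds. The list was chosen with earlier results of these data known. All 19 members of the germline list carried H3K4me3, against 75.2% of all genes, and all 19 had a fold above the median of marked genes, where 50.0% lie by construction. Their median fold was 5.63 and the range 4.16 to 7.56. The membrane proteins of gamete fusion DMP9 (AT5G39650) and DMP8 (AT1G09157) had 7.56 and 7.37, and the tetraspanin TET12 (AT5G23030) had 7.25. GEX3 (AT5G16020), a membrane protein of gametes, had 6.34, and GEX1 (AT5G55490), needed for nuclear fusion in reproduction, had 6.29 in a peak that covers 2 genes. The fusogen HAP2 (AT4G11720) had 5.07 and the gamete adhesion protein GEX2 (AT5G49150) 5.45. SSP (AT2G17090), the paternal pseudokinase that acts on the YODA pathway in the zygote, had 5.63. HTB8 (AT1G08170), a histone H2B variant of sperm, had 6.15, and the pollen aquaporin TIP5;1 (AT3G47440) had 6.15, though its peak of 4187 bp covers 3 genes. OPT8, PCR11 and TET11 had 4.91, 5.70 and 5.02, the peak of PCR11 covering 2 genes. These genes are short, with a median length of 1256 bp, and 68.4% of all genes over 1000 and up to 1500 bp carried the mark.

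The regulators DUO1, DUO3, DAZ1 and DAZ3 were among the members with folds below the median of this list, while DAZ2 was above it. DUO1 (AT3G60460), the MYB factor of the male germline, had a fold of 5.04, and DUO3 (AT1G64570) had 4.16. All 9 genes that the annotation calls activated by DUO1 carried the mark, with a median of 5.37 and a range from 4.22 at DAA1 to 8.01 at DAN1. The zinc finger repressors DAZ1 (AT2G17180), DAZ2 (AT4G35280) and DAZ3 (AT4G35700) had 5.27, 6.33 and 5.29. DAF1, an F-box protein, had 4.99, DAW1, a WD40 protein, 5.37, and DAU1 5.65. Since 4 of the 9 are also members of the germline list, their values are not separate evidence. HTR10 (AT1G19890; MGH3), the gene of H3.10, had 4.23. Its peak at chromosome 1, 6904922 to 6905789, had a −log10 q of 1111, where peaks of like fold had a median of 85.6, and its sequence is also carried by the reporter of the sorted line.

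Genes of other cell types had lower median folds. The pollen vegetative cell, which surrounds the sperm and is the other source of nuclei in pollen, was represented by 23 genes. Of these, 16 (69.6%) carried H3K4me3, 4 above the median of marked genes, and their median fold was 3.81. CNGC18 (AT5G14870), a calcium channel of the pollen tube, had 6.87, and ANX1 (AT3G04690), a receptor kinase of the pollen tube tip, had 6.18 in a peak that covers 2 genes. Its partner ANX2 (AT5G28680) had 2.504. No peak covered the receptor kinase genes BUPS1 (AT4G39110) and PRK2 (AT2G07040), the co-receptor gene LLG2 (AT2G20700), the peptide gene RALF4 (AT1G28270), the proton pump genes AHA6 (AT2G07560) and AHA8 (AT3G42640), or the kinase gene CPK34 (AT5G19360). The kinase gene CPK17 and the co-receptor gene LLG3 had 4.32 each, the calcium pump gene ACA9 had 4.03, the peptide gene RALF19 3.98 and VEX1 3.78. The MYB factors of the pollen tube MYB97, MYB101 and MYB120 had 2.69, 3.62 and 3.02. PTEN1, BUPS2 and the aquaporin gene TIP1;3 had 2.95, 2.76 and 2.24. The peaks of LLG3 and TIP1;3 each cover a second gene. The folds of VGD1 (3.84) and VGDH1 (4.07), neighbouring pectin methylesterase genes of pollen, are uncertain, since reads of related copies may be split between them. The part of other nuclei in these values was not tested.

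In the list of egg and central cell genes, 7 of 10 carried H3K4me3 with a median fold of 3.17, 1 of them above the median of marked genes. The egg cell peptide genes EC1.2 to EC1.5 had 3.58, 3.33, 3.17 and 4.34, each under a peak that it shares with a neighbour, and EC1.1 had none. FWA (AT4G25530), an imprinted gene of the endosperm, had 1.68, and AGL61 and AGL80, MADS box factors of the central cell, had 1.87 and 3.01. MEA and FIS2, subunits of the Polycomb complex of the central cell and endosperm, had no peak. Light-harvesting and Rubisco genes had a peak on 10 of 17 members with a median fold of 2.90. The highest were LHCA3 (AT1G61520) at 5.20, LHCA1 at 4.11 and RBCS3B at 3.33, those of LHCA3 and LHCA1 in peaks shared with another gene. LHCB1.1 and LHCB2.2 were lowest at 1.80 and 2.09. There was none on LHCB1.2, LHCB3, LHCB5, LHCB6, LHCA2, RBCS1A or RBCS1B. The LHCB1 genes, the LHCB2 genes and RBCS1B, RBCS2B and RBCS3B are related copies, so reads may be split among them. With peaks of fold of at least 3, 4 of the 17 (23.5%) were left, against 56.3% of all genes.

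Seed and developmental regulators were marked unevenly. In the seed list 11 of 14 members carried H3K4me3, close to the background of 75.2%, but with a median fold of 2.61 and 1 member above the median of marked genes. With peaks of fold of at least 3 the share was 14.3%, against 56.3% of all genes. LEC1 (AT1G21970), a regulator of embryogenesis, had 5.00 and FUS3 (AT3G26790) 3.72, while SESA2, a storage albumin gene, had 2.91. The lowest were SESA1, also a storage albumin gene, at 1.89 and the cruciferin gene CRU2 at 1.92. The albumin genes are tandem copies, so reads may be split among them. No peak lay on SESA3, SESA5 or OLEO1. H3K27me3 in its broad list (median −log10 q 0.835) lay on 6 of the 11, against 4.19% of all genes with H3K4me3. In the list of meristem and flower identity genes 9 of 18 were marked, with a median of 3.51. LFY (AT5G61850), which specifies floral meristems, had 5.56, the flowering repressor FLC (AT5G10140) had 5.51 and the boundary gene CUC1 (AT3G15170) 4.79, the peaks of LFY and CUC1 covering 2 genes each. SOC1 and AG were lowest at 1.86 and 1.97. The floral organ genes AP1, AP3, PI, SEP1 and SEP2, the meristem genes STM and KNAT1, the root gene PLT1 and the florigen gene FT had no peak.

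**Figure D4:**
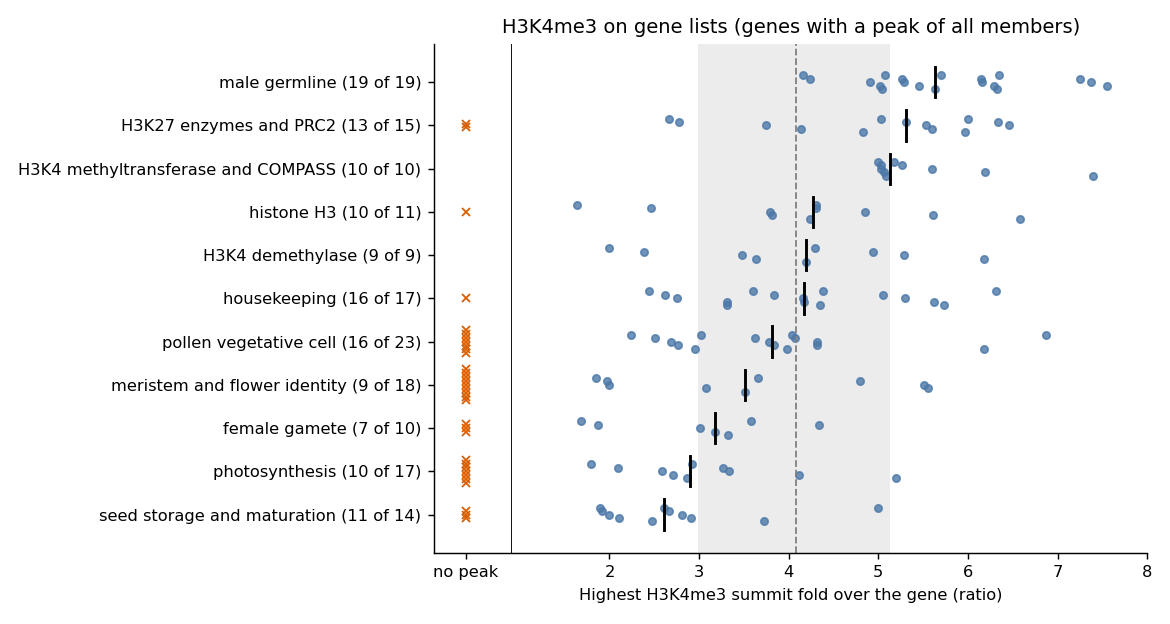
Highest summit fold over each member of 11 gene lists (points, ratio of immunoprecipitation to control), with members without a peak as crosses at the left and the list median as a black bar; the labels give marked members of all members. The dashed line and grey band are the median of 4.08 and the quartiles of all genes with H3K4me3; every member of the male germline and the H3K4 methyltransferase lists lies to the right of the line.

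The genes for the enzymes of the mark itself were all marked. All 10 genes of H3K4 methyltransferases and COMPASS subunits had H3K4me3, and all 10 were above the median of marked genes, with folds of 5.00 to 7.40. The 7 methyltransferase genes lay close together. ATX2 (AT1G05830) had 5.00, ATX5 (AT5G53430) 5.03, ATX3 (AT3G61740) 5.03, ATXR7 (AT5G42400) 5.07, ATX1 (AT2G31650) 5.17 and ATX4 (AT4G27910) 5.27. ATXR3 (AT4G15180; SDG2), which makes most H3K4me3 in the plant, had 5.59. The core subunit genes WDR5A (AT3G49660), ASH2R (AT1G51450) and RBL (AT3G21060) had 7.40, 6.19 and 5.08. These genes are long, with a median of 6846.5 bp. Of all genes over 5000 bp, 92.6% were marked, with a median fold of 4.51.

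The 9 H3K4 demethylase genes all carried the mark, with a median of 4.19 and 5 above the median of marked genes. Their median length is 5303 bp, and 92.6% of all genes over 5000 bp were marked. Among the JmjC enzymes, JMJ18 (AT1G30810) had 6.18, JMJ15 (AT2G34880) 5.28 and JMJ14 (AT4G20400) 4.29, while JMJ16 (AT1G08620) and JMJ17 (AT1G63490) had 2.38 and 1.99. The peaks of JMJ18 and FLD each cover a second gene. Among the LSD1-type enzymes, LDL3 (AT4G16310) had 4.94, LDL2 (AT3G13682) 4.19, FLD (AT3G10390) 3.64 and LDL1 (AT1G62830) 3.48. The list of H3K27 enzymes and Polycomb repressive complex 2 had 13 of 15 members marked, with a median of 5.31. The H3K27 demethylase gene REF6 (AT3G48430) was highest at 6.46. The H3K27me1 methyltransferase gene ATXR6 (AT5G24330) followed at 6.33, in a peak shared with a neighbour. JMJ13 came next at 5.996. The Polycomb genes SWN (AT4G02020) and VRN2 (AT4G16845) were lowest at 2.67 and 2.77.

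Housekeeping genes had folds near those of all genes. In the housekeeping list 16 of 17 members were marked, with a median fold of 4.17 beside 4.08 for all marked genes. The cyclophilin gene ROC3 (AT2G16600) had 6.31, the actin gene ACT8 (AT1G49240) 5.74 and the splicing factor gene YLS8 (AT5G08290) 5.62, in a peak shared with a neighbour. The actin genes ACT2 (AT3G18780) and ACT7 (AT5G09810) were lowest at 2.44 and 2.62, and PP2AA3 had no peak. Among histone H3 genes 10 of 11 were marked. The canonical gene HTR1 (AT5G65360) had 6.58, in a peak that also covers a neighbour, the centromeric HTR12 (AT1G01370), sharing its peak likewise, had 5.61 and the H3.3 gene HTR8 (AT5G10980) 4.85. The canonical genes HTR9 (AT5G10400) and HTR13 (AT5G10390), neighbours on chromosome 5, had 1.64 and 2.46, and HTR3 had no peak. The canonical copies are near-identical, so reads may be split among them.

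Families found through symbols and synonyms of the gene table differed widely. They hold only genes whose symbol or synonym names the family, so they may be a part of it. All 27 genes of translation initiation and elongation factors, all 23 kinesins and all 31 genes with MCM, ORC, CDC or PCNA symbols, which act in replication and the cell cycle, were marked. Their median folds were 4.77, 4.75 and 4.96, and their median lengths are 2497, 5304 and 2974 bp. Cyclins and cyclin-dependent kinases followed with 36 of 37 at 4.79, pentatricopeptide repeat proteins with 103 of 116 at 4.61 and ribosomal proteins with 58 of 67 at 4.36. Several families had medians below the 4.08 of all marked genes. Among transcription factors 51 of 67 WRKY genes were marked, a share near the background, at a median of 3.27, with 49 of 69 NAC genes at 3.15, and 66 of 123 MYB genes at 3.03. Of receptor like proteins 31 of 52 were marked at 2.51, of cysteine-rich receptor kinases 37 of 42 at 3.30 and of disease resistance proteins 11 of 13 at 3.98. Of 232 cytochrome P450 genes 167 were marked, with a median of 3.24. The small secreted peptides of the LCR, PDF and SCRL groups were the least often marked, with 16 of 121 (13.2%, exact binomial interval 7.75 to 20.6%). Their median length is 616 bp, and the share among all genes over 600 and up to 1000 bp was 52.4% and among shorter ones 26.5%.

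A minority of peaks lay off protein-coding genes. There were 1889 peaks (8.53%) that covered less than 150 bp of any such gene, with a median fold of 2.49. Of these, 941 touched no gene of any kind and had a median fold of 2.27. A lncRNA gene was the best match for 296, a pseudogene for 191 and a transcribed pseudogene for 202, with median folds of 2.86, 3.24 and 2.92. H3K27ac touched 1233 of the 1889 (65.3%), against 69.2% of all H3K4me3 peaks. Of all H3K4me3 peaks with a fold of 2.40 to 2.81, near the median of the 1889, it touched 51.6%. A few were as enriched as the strongest genes. The tenth peak of the whole list, at chromosome 5, 25923604 to 25924217, reached a ratio of 8.01 over AT5G00710, which the table classes as miscellaneous RNA. The peak at chromosome 1, 1543198 to 1544158, over the lncRNA gene AT1G04387 had 7.49, and that at chromosome 5, 25034902 to 25036181, over the lncRNA gene AT5G09055 had 7.37.

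The other marks changed with the fold of H3K4me3. Peaks were put in 10 equal classes of fold and counted when they shared at least 1 bp with a peak of another mark. H3K27ac touched 69.2% of all H3K4me3 peaks, 37.1% of the lowest class (fold 1.17 to 1.995) and 98.0% of the highest (fold 5.76 to 8.45), rising in each class between. H3K27me1 touched 18.6% of all, 28.4% of the lowest class and 5.37% of the highest. Widths differ between classes, with medians of 493 and 1018 bp. Among peaks of 650 to 1146 bp the shares were 40.3% and 98.0% for H3K27ac and 36.8% and 1.82% for H3K27me1. The marks share the Input_A preparations, and what these add to the relation was not tested.

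H3K27me3 was rare under H3K4me3 peaks and most frequent in the highest class. In its broad list it touched 4.01% of all H3K4me3 peaks, between 3.21 and 4.51% in the 9 lower classes and 7.22% (160 of 2215) in the highest. Peaks of this broad list had a median −log10 q of 0.835. Among peaks of 650 to 1146 bp the share of the highest class was 3.86%, within the 2.21 to 5.19% of the other classes. With the narrow H3K27me3 list, of 478 peaks, it was 1.67% in the highest class and 1.58% in the lowest, and the classes between were not computed. The higher share of the highest class was therefore not seen among peaks of these middle widths. With the narrow list it can be set against the lowest class only.

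**Figure D5:**
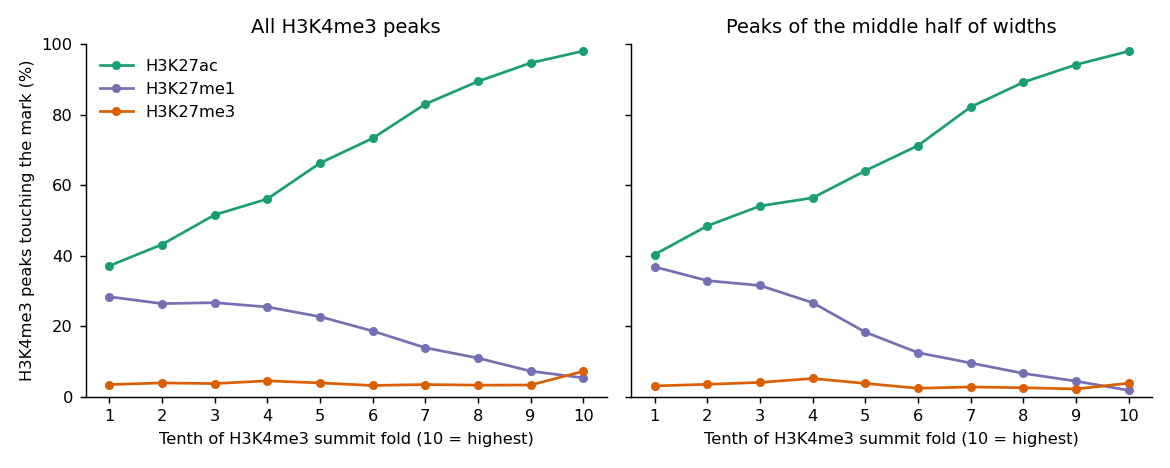
Percent of H3K4me3 peaks that touch an H3K27ac, H3K27me1 (narrow lists) or H3K27me3 (broad list) peak, in 10 equal classes of H3K4me3 summit fold from low to high. Left, all 22150 peaks; right, peaks of 650 to 1146 bp only; H3K27ac rises to 98.0% and H3K27me1 falls to 5.37% in the highest class of all peaks.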

How the data were processed

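Sperm chromatin cut with micrococcal nuclease was immunoprecipitated with anti-H3K4me3 and sequenced as 50 bp paired-end reads, per the labels' protocols. The submitters' processing notes list the TAIR10 build, the peak caller MACS2 2.1.0 and the aligner Bowtie2 2.1.0, with deepTools 2.5.0.1, SAMtools 1.3, Trim Galore 0.4.1, bedtools and Picard; no settings are stated there. The deposited peak lists, 1 per mark, hold for each peak a fold (a linear ratio to control, at the summit in narrow lists), a −log10 q value, and a score that is 10 times the −log10 q, all by the authors. The numbers of reads are not in these lists, so the depth behind each value is unknown. Replicates cannot be compared and no test was run.

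From these, peaks were joined with Python 3.11.15, numpy 2.4.6, pandas 2.3.3 and scipy 1.17.1 to the 27444 nuclear protein-coding genes of a RefSeq gene table of TAIR10.1. The shares of summits in genes were highest at a shift of 0 bp on all 5 chromosomes among shifts of at most 5000 bp either way. The table gives gene spans without strand, sequence or descriptions. A gene counted as marked with at least 150 bp under 1 peak, and its fold is that of the highest such peak. Intervals are 95% exact binomial (Clopper-Pearson) over genes and cover counting error only. Joins were tested on simulated data. The genes named are the 30 of highest and 10 of lowest fold, those under the 5 widest peaks, all members of the germline, vegetative, female gamete, H3K4 methyltransferase and demethylase lists, and of other lists the 3 highest, 2 lowest and unmarked members. Of the 30, some are given only in counts, and 1 is not reported here. The genes annotated as activated by DUO1, 10 families and the peaks off genes were added after their values could be seen. All members and lists were chosen with earlier results of these data known. Alternatives were the broad list, stricter thresholds, other overlaps with the gene, other distances to gene ends and the other list of each mark.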

Additional observations from a re-analysis of the deposited data

How the results depend on the processing

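No paired analysis was possible because the lists hold no value per sample, and leaving out a replicate was likewise not possible. Promoter motifs were not run, since no sequence was used here, and the fold of the broad list, a mean over the peak, was not put in place of the summit fold. Single values kept their sign, but some orders turned, as given below. The cause of the shifts was not tested beyond what each setting leaves out by construction. With the broad list there were 11480 peaks of median width 1443 bp, with 54.8% of bases near a gene end, 2.69% of peaks in pericentromeres and 60.9% of genes marked. With a −log10 q of at least 20 the median width was 894 bp, the median fold 4.11, rho of fold and width 0.320, bases near an end 54.5%, marked genes 66.7%, their median fold 4.31 and H3K27ac in the lowest class 51.7%. With a fold of at least 3 there were 14571 peaks, with a width of 931 bp, fold 4.51, rho 0.212, bases near an end 54.9%, marked genes 56.3%, gene fold 4.59, and H3K27ac at 58.9% in the lowest and 98.8% in the highest class. The share of genes was 75.9% with 1 bp of overlap, 74.2% with 300 bp, 68.3% with the summit inside the gene (median fold 3.97) and 26.4% with 50% of the gene covered (median fold 4.17). Under that last rule the H3K4 methyltransferase and Polycomb lists, which hold long genes, had 0% marked and the H3K4 demethylase list 22.2%, below all genes, while the vegetative (34.8%), female gamete (50%) and photosynthesis (41.2%) lists were above them. The male germline list, at 73.7%, stayed above. The median fold of the meristem list, 4.79, was then above that of all genes. With the summit inside the gene the vegetative share (69.6%) was above and the histone H3 share (63.6%) below that of all genes, and with the broad list the female gamete share (70%) was above it. The seed share was below that of all genes with a −log10 q of at least 20 (50%) and with a fold of at least 3 (14.3%). Under both thresholds the median folds of the demethylase, housekeeping and histone H3 lists were below that of all genes. Bases near a gene end were 26.0% at 250 bp and 87.0% at 1000 bp. With the other list of each mark, H3K27ac touched 0.767% of the lowest and 0.226% of the highest class, the opposite order to the narrow list. The broad H3K27ac list has 163 peaks.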

Other observations

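In 9 peaks the −log10 q was at least 2 times the running median of peaks of like fold, and 6 of these lay in pericentromeres. The ratio was 18.5 at chromosome 3, 14194009 to 14195621, over AT3G41762, 13.0 at HTR10 and 7.82 at the peak over AT3G13062 and SRF4. These peaks were picked after their values were seen. Across all 22150 peaks Spearman's rho of fold and −log10 q was 0.997. The broad list shared bases with 75.1% of the narrow peaks, from 71.5% in the lowest to 77.97% in the highest class of fold, and its own fold had a rho of -0.0562 with the highest narrow fold inside each of 11079 broad peaks.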
